A study of Mus musculus with 4 samples.

Results

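The genes described are the mouse genes for the proteins of the cytosolic ribosome, the RP genes. They were taken from the feature tables by symbol: Rpl or Rps followed by a digit, with at most a trailing letter, x or l1 form, plus Rplp0, Rplp1, Rplp2 and Rpsa, and without symbols containing -ps and the Rps6k kinases. This left 82 of the 31053 genes listed, 51 of the large and 31 of the small ribosomal subunit, spread over 19 chromosomes with 14 of them on chromosome 7. All but Rpl10l, which had 0 UMIs, were detected. In 75 members every sum of cells described here held at least 20 UMIs. The other 7 were Rps27l, Rpl13a, Rpl7l1, Rpl29, Rpl39l, Rpl3l and Rpl10l.

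Each ribosome holds 1 copy of nearly every RP, apart from the stalk proteins P1 and P2, so cells make these proteins in matched amounts. Most RP mRNAs begin with a C followed by a run of pyrimidines at the transcription start, the TOP motif, through which growth signals set their translation together. Resting lymphocytes keep large stores of RP mRNA, and Myc, the oncogene that drives the prostate cancer cells used here, is known to raise RP genes, translation factors and ribosome biogenesis genes. A few RPs have a second gene copy, or paralog, with tissue-biased use: Rps27l is a target of the stress regulator p53, Rpl3l is a striated muscle form, and Rpl39l and Rpl10l are best known from the testis.

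The study grafted the mouse prostate cancer cell line MycCaP, made from HiMyc mice, under the skin of immunocompetent mice, and asked what depletion of adipose stromal cells (ASC) by the peptide D-CAN does to the tumor. The strain is written VFB in the labels and FVB in the methods. There were 4 libraries of single cells, 1 each from the tumor of a control animal group (PBS), the tumor of a D-CAN group, and the stromal and vascular cells of subcutaneous adipose tissue (SAT) of a control and a D-CAN group. Dead cells and red cells were removed before capture with a 10x 3′ kit. All 4 groups share the strain and preparation, the age of the mice is not given in the sources used here, and neither is how many animals a library pools or whether a tumor and a SAT library came from the same animals. With 1 library for each treatment in each tissue, comparisons of D-CAN with control carry no test.

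The assay counts unique molecular identifiers (UMIs), 1 tag near the 3′ end of each captured RNA, so levels were not divided by transcript length and are given as CPM, the UMIs of a gene scaled to the same total of UMIs in each sum. The libraries held 1525 to 2851 cells and 6667064 to 17996284 UMIs each, and 8986 of 9128 cells had at least 200 genes and were kept. RP genes took 25.1% of the UMIs in tumor control, 25.3% in tumor D-CAN, 27.7% in SAT control and 27.6% in SAT D-CAN. The share in single cells ran from 0.563% to 60.3%. Cells were assigned to classes by 8 marker genes each, none of them an RP gene: at least 2 markers with a UMI, and no other class with more than 50% as many. These gates are ranges on marker counts, not cell types, and 6678 cells passed 1. Among cancer-like cells 80.3% of the control and 72.3% of the D-CAN cells sat at the minimum of 2 markers. Cells with markers of several classes (418) stayed ungated, which took the place of a doublet caller. UMIs were then summed over the cells of a class in a library, giving 22 sums of at least 20 cells. Libraries shared 7 cell barcodes in all, at most 2 in any pair.

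The start-site sequences of 8 members on which the results turn are shown because the TOP motif is typical of the family and because both copies of 2 paralog pairs can be set side by side. Each runs from 15 bases before to 15 after the RefSeq transcription start (GRCm38.p6), 5′ to 3′ on the gene's strand, with capitals for every C-led run of at least 5 pyrimidines that begins within 10 bases of the start.
Rps27, chr3:90213634-90213663, minus strand: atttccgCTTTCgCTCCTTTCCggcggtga
Rps27l, chr9:66946071-66946100, plus strand: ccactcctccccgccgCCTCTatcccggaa
Rpl39, chrX:37085208-37085237, minus strand: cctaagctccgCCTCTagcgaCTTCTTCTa
Rpl39l, chr16:10170213-10170242, plus strand: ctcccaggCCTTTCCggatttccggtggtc
Rplp0, chr5:115559452-115559481, plus strand: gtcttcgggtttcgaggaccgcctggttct
Rpl12, chr2:32961697-32961726, plus strand: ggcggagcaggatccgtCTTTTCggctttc
Rpsa, chr9:120127751-120127780, plus strand: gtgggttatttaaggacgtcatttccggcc
Rpl10, chrX:74270801-74270830, plus strand: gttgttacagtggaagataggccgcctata
Both copies of the Rps27 and Rpl39 pairs hold at least 1 run in this window, while Rplp0, Rpsa and Rpl10 hold none. Of the 62 members with a RefSeq entry in the table, 36 (58.1%) held such a run, against 28.1% of 27025 genes. The letters CCGGAA, on either strand, stood in the 300 bases around the start of 31 of the 62 members (50%) and of 15.2% of all genes, and TATAAA in 7 (11.3%) and 14.2%. A match describes the letters of the window and no binding. Where a gene has several RefSeq starts only the most upstream was read, so a window without a run says nothing of its other starts.

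RP genes made up the largest share of UMIs in lymphocyte-like and cancer-like cells. Mural-like cells had the smallest share in both SAT libraries but not in tumor control. In T/NK-like cells RP genes took 26.4% of the UMIs in the tumor D-CAN library, where the sum had 23 cells, 38.0% in SAT control and 37.0% in SAT D-CAN. B-like cells, gated in SAT alone, had 32.2% in control and 30.5% in D-CAN. Cancer-like cells of the tumors had 27.6% and 27.5%. All other sums lay below these classes. Macrophage-like cells had 16.5% and 16.2% in the tumors and 18.0% and 18.8% in SAT. Fibroblast-like cells had 16.8%, 16.6%, 18.4% and 15.8% in the same order, and endothelial-like cells 17.04%, 18.0%, 14.5% and 12.1%. Mural-like cells, the smooth muscle and pericyte gate, had 17.2% in tumor control, 12.9% in SAT control and 9.52% in SAT D-CAN. The sums of the T/NK-like class spanned those of both B-like and cancer-like cells, and the sums of the 4 lower classes overlapped.

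**Figure D1:**
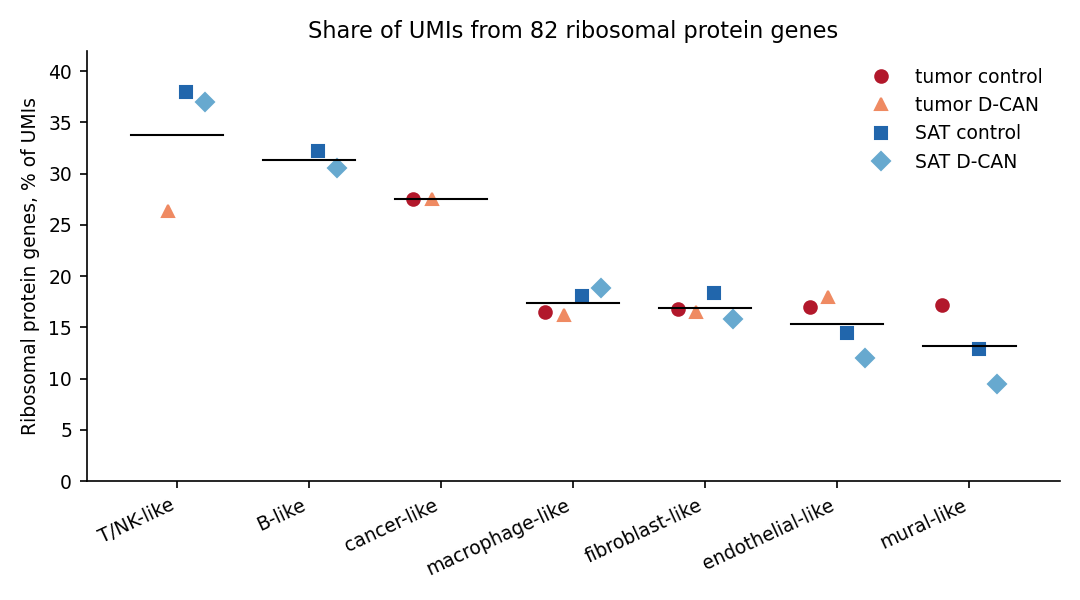
RP share of all UMIs, in percent, for each of the 22 sums of gated cells (points, by tissue and treatment) with the class mean as a bar across the points. All T/NK-like, B-like and cancer-like sums sit at 26.4% or more and all other sums at 18.8% or less.

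As class means the shares were 33.8% ± 6.45 (SD, n = 3 libraries) in T/NK-like, 31.4% ± 1.20 (n = 2) in B-like, 27.6% ± 0.0316 (n = 2) in cancer-like, 17.4% ± 1.25 (n = 4) in macrophage-like, 16.9% ± 1.08 (n = 4) in fibroblast-like, 15.4% ± 2.67 (n = 4) in endothelial-like and 13.2% ± 3.86 (n = 3) in mural-like cells. Within the same library the T/NK-like share exceeded the macrophage-like share in 3 of 3 libraries, by 10.1 to 19.96 percentage points (mean 16.1, two-sided exact permutation p = 0.25, the smallest this design allows). The cancer-like share exceeded the macrophage-like share by 11.2 points on average in both tumor libraries (exact p = 0.5, again the smallest possible). Endothelial-like and fibroblast-like shares differed by less than their spread over libraries, by -1.52 points on average over 4 libraries (SD 2.75, exact p = 0.5, smallest possible 0.125). The mural-like and fibroblast-like shares differed by -3.80 points over 3 libraries (SD 3.67, exact p = 0.5, smallest possible 0.25). The ratio of large to small subunit UMIs moved with class and tissue. In the tumors it was 1.42 and 1.43 in cancer-like, 1.34 and 1.37 in fibroblast-like, 1.30 and 1.32 in endothelial-like, 1.30 and 1.27 in macrophage-like, 1.31 in mural-like and 1.18 in T/NK-like cells. In SAT it was 1.30 and 1.32 in mural-like, 1.25 in both fibroblast-like sums, 1.18 and 1.20 in endothelial-like, 1.18 in both macrophage-like, 1.12 in both B-like and 1.11 in both T/NK-like sums. Endothelial-like, fibroblast-like and macrophage-like cells thus had higher ratios in the tumors than in SAT without overlap.

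The module was carried by many genes, though at unlike levels, with means over the 22 sums as low as 672 CPM in Rpl31 and 42.6 CPM in Rpl29. The 27 highest members gave 50% of all RP UMIs. Among the highest were Rpl13 with a mean of 5734 CPM over the 22 sums (2774 to 10209), Rps29 with 5294, Rplp1 with 5081 and Rps24 with 4944 CPM. Rpl13 is a large subunit protein, Rps24 and Rps29 belong to the small subunit, and Rplp1 is an acidic protein of the stalk that binds elongation factors. Some RP genes fall outside the rule by their symbol: Rps3a1 equalled 1.82% of the members' UMIs, Fau 1.25% and Rpl36al 0.158%. They are missing from the shares and from the ratios of large to small subunit UMIs above.

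T/NK-like cells against macrophage-like cells gave the widest contrast. Of 81 members tested, 74 were higher and 1, Rps27l, was lower in T/NK-like cells by edgeR's quasi-likelihood test (Benjamini-Hochberg adjusted p under 0.05 over 12585 genes), against 9.76% of all genes higher and 15.7% lower, whereas with counts scaled to the module total, which removes the common shift, 8 members were higher and 13 lower. The median member was 1.13 higher on the log2 scale, where the median gene stood at -0.07. Without the SAT control library the count of higher members was 9, and without SAT D-CAN it was 27. Median UMIs per cell were 2768 in T/NK-like and 1464 in macrophage-like cells of SAT control. They stood the other way in SAT D-CAN (3505 and 4618.5) and tumor D-CAN (1410 and 2376). Among SAT control cells of under 1000 UMIs the RP shares were 19.3% (99 cells) and 15.9% (24 cells). The part of depth in this contrast was not tested.

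Rpl12, which sits at the base of the stalk, had 3327 CPM in the tumor T/NK-like sum and 7917 and 8336 CPM in the SAT sums. In macrophage-like cells it had 1716 and 1768 CPM in the tumors and 2185 and 2001 CPM in SAT, so the groups did not overlap. The fitted difference was 1.98 on the log2 scale (SE 0.345, edgeR adjusted p = 0.000108). Rpsa, a small subunit protein also known as the laminin receptor, had 7707, 8646 and 8844 CPM in T/NK-like cells and 2716 to 4115 CPM in macrophage-like cells, a log2 difference of 1.69 (adjusted p = 0.000214, edgeR). Rpl22l1, the paralog of the RNA-binding protein Rpl22, had 847, 1288 and 1232 CPM against 368 to 455 CPM (log2 difference 1.70, SE 0.281, edgeR adjusted p = 5.48e-05). The stalk genes Rplp0, Rplp1 and Rplp2 were higher by 1.27, 1.38 and 1.31. Rpl5 and Rpl11, which bind the p53 inhibitor Mdm2 when ribosome assembly is disturbed, were higher by 1.53 and 0.998. Rps19, mutated in Diamond-Blackfan anemia, was higher by 1.33 and Rps6, the substrate of S6 kinase, by 1.22, and all 7 passed the test. The 6 members that passed in neither direction were Rps27a, Rps29, Rpl31, Rpl10, Rpl7l1 and Rpl3l.

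**Figure D2:**
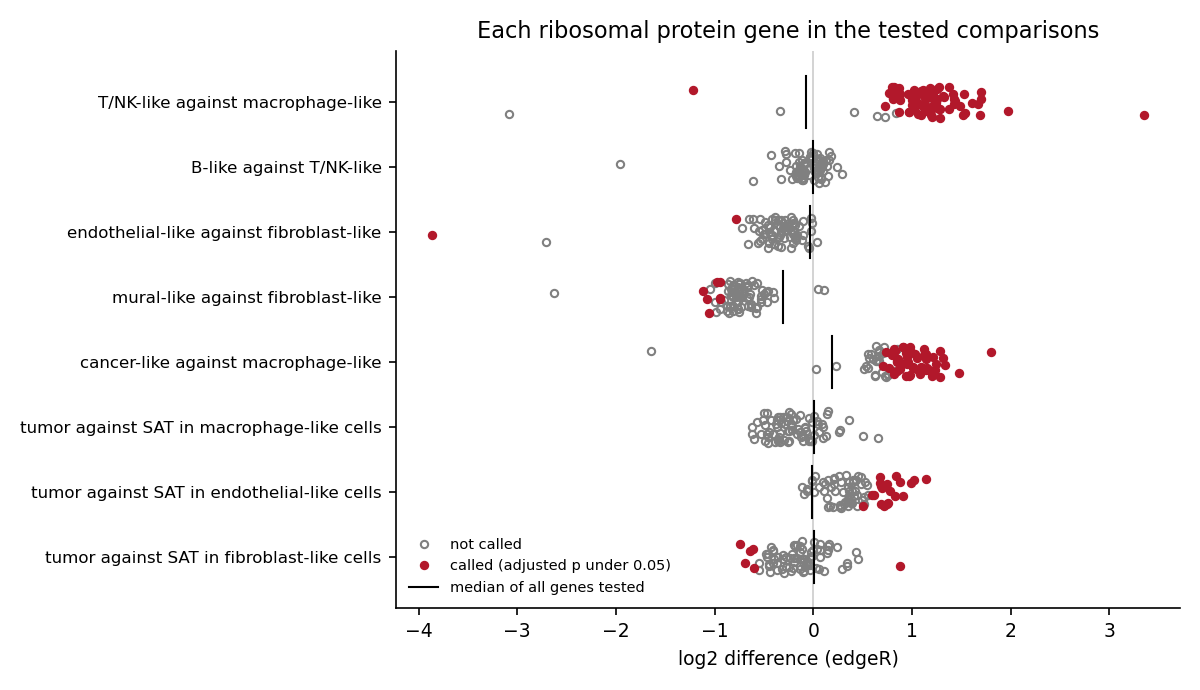
Log2 differences of the members tested in each comparison of the edgeR fits (points), with members past an adjusted p of 0.05 marked and the median of all genes tested drawn as a reference. Members lie mostly above the reference in T/NK-like (74 of 81 higher) and cancer-like cells (52 of 81 higher) against macrophage-like cells, and 8 and 1 members were higher when counts were scaled to the module total.

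Rps27 and Rps27l, on chr3:90212522-90213651 and chr9:66946086-66949516 (GRCm38), encode near-identical small subunit proteins and moved apart between the classes. Rps27 had 5455, 9190 and 6942 CPM in the T/NK-like sums of tumor D-CAN, SAT control and SAT D-CAN, 9169 and 7073 CPM in B-like cells and 3357 and 3352 CPM in cancer-like cells. In the other 15 sums it had 1242 to 3146 CPM. The lymphocyte sums are therefore the highest for Rps27 without overlap.

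Rps27l ran the other way. In T/NK-like cells it had 227 CPM in tumor D-CAN, from 11 UMIs, and 105 and 88.8 CPM in SAT control and D-CAN, and in B-like cells 69.2 and 87.2 CPM. Cancer-like cells held the highest levels, 684 and 702 CPM. Tumor macrophage-like cells had 495 and 445 CPM, endothelial-like cells 450 and 494 CPM, fibroblast-like cells 547 and 595 CPM and mural-like cells 572 CPM. The same classes in SAT had 232 to 325 CPM, below every tumor sum of those classes. Summed CPM of the 8 cancer-like markers was 158 to 223 in tumor and 4.18 to 37.5 in SAT macrophage-like sums. In fibroblast-like sums it was 67.4 to 162 and 59.0 to 101, and in endothelial-like sums 54.5 to 600 and 2.10 to 3.56. The part of cancer cell RNA in the Rps27l levels was not tested. The log2 difference of T/NK-like from macrophage-like cells was 1.70 for Rps27 (edgeR adjusted p = 6.23e-05) and -1.22 for Rps27l (SE 0.245, adjusted p = 0.000495). Scaled to the module total the differences were 0.52 (adjusted p = 0.00186) and -2.46 (adjusted p = 1.88e-07).

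Counted together, the pair gave 24.0 Rps27 UMIs for each Rps27l UMI in tumor T/NK-like cells (exact 95% interval 13.2 to 48.7, counting error only). In SAT T/NK-like cells the ratio was 87.4 (76.8 to 99.9) in control and 78.2 (69.2 to 88.7) in D-CAN. B-like cells had 133 (110 to 161) and 81.1 (69.5 to 95.1). The cancer-like ratios were 4.91 and 4.78, and all other sums lay between 3.61 and 11.2. Lymphocyte and other sums thus did not overlap in this ratio. A near-identical copy, Rps27rt, lies outside the rule and had 4473 UMIs in all, and reads of such copies can be split between symbols.

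**Figure D3:**
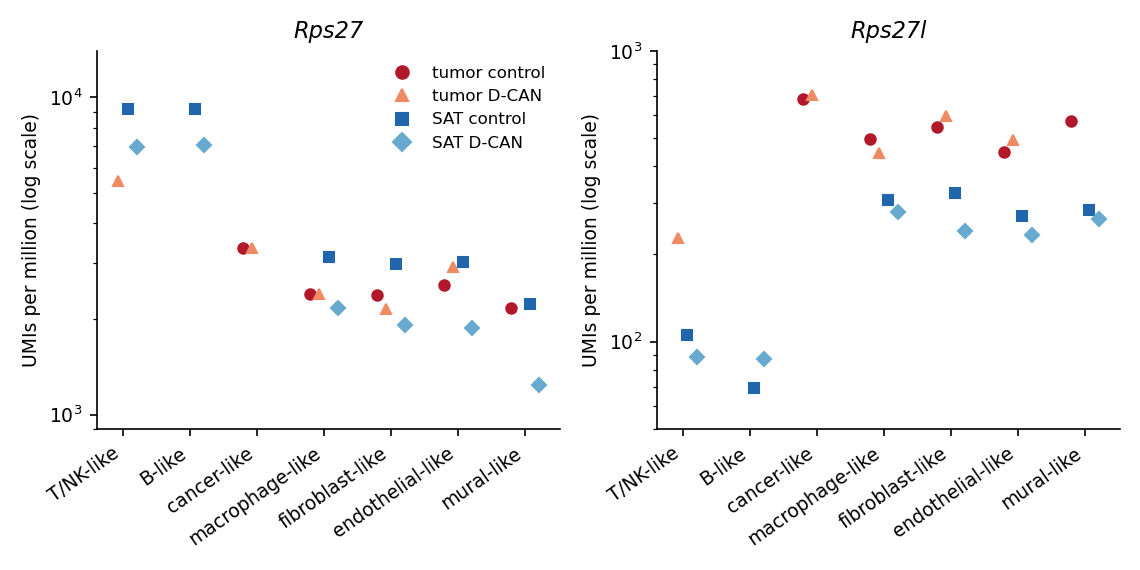
CPM of Rps27 and of Rps27l in each of the 22 sums by class (log axis, points by library). Lymphocyte-like sums combine the highest Rps27 levels, 5455 to 9190 CPM, with the lowest Rps27l levels, 69.2 to 227 CPM.

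Other members departed from the common level with class, tissue and library. The deviation is the log2 share of a member in the module of a sum, minus its median over the 22 sums, and is a description without a test. Among the 75 members with at least 20 UMIs in every sum the largest SDs included those of Rplp0 (0.399), Rpl38 (0.396), Rpl41 (0.367), Rps27 (0.362), Rpl12 (0.354), Rpl37 (0.347), Rps2 (0.327), Rpl10 (0.313) and Rpl7a (0.306). Rplp0, the backbone of the stalk, averaged 0.76 in cancer-like and -0.48 in B-like cells. Rpl12 averaged 0.59 in T/NK-like and 0.57 in B-like cells, and Rps27 0.75 in B-like cells. The Rpl12 mean of T/NK-like cells rests on SAT, with 2.08% and 2.25% of the module there and 1.26% in the tumor T/NK-like sum. SAT D-CAN fibroblast-like cells had 1.43%. Rpl37 averaged 0.52 in cancer-like cells, Rps2 0.57 in mural-like cells and Rpl10 -0.39 in T/NK-like cells. Rpl38 followed tissue and library more than class, with 0.09 to 0.53 in the tumor sums, -0.11 to 0.05 in SAT control and -0.82 to -0.28 in SAT D-CAN. Rpl7l1, with under 20 UMIs in some sums, had an SD of 0.744, with -1.78 and -1.92 in the SAT T/NK-like sums (89 and 105 UMIs), -1.12 and -1.26 in B-like and 0.13 to 0.51 in macrophage-like sums. Rps29 averaged 0.47 in macrophage-like cells and is named here after its values were seen.

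**Figure D4:**
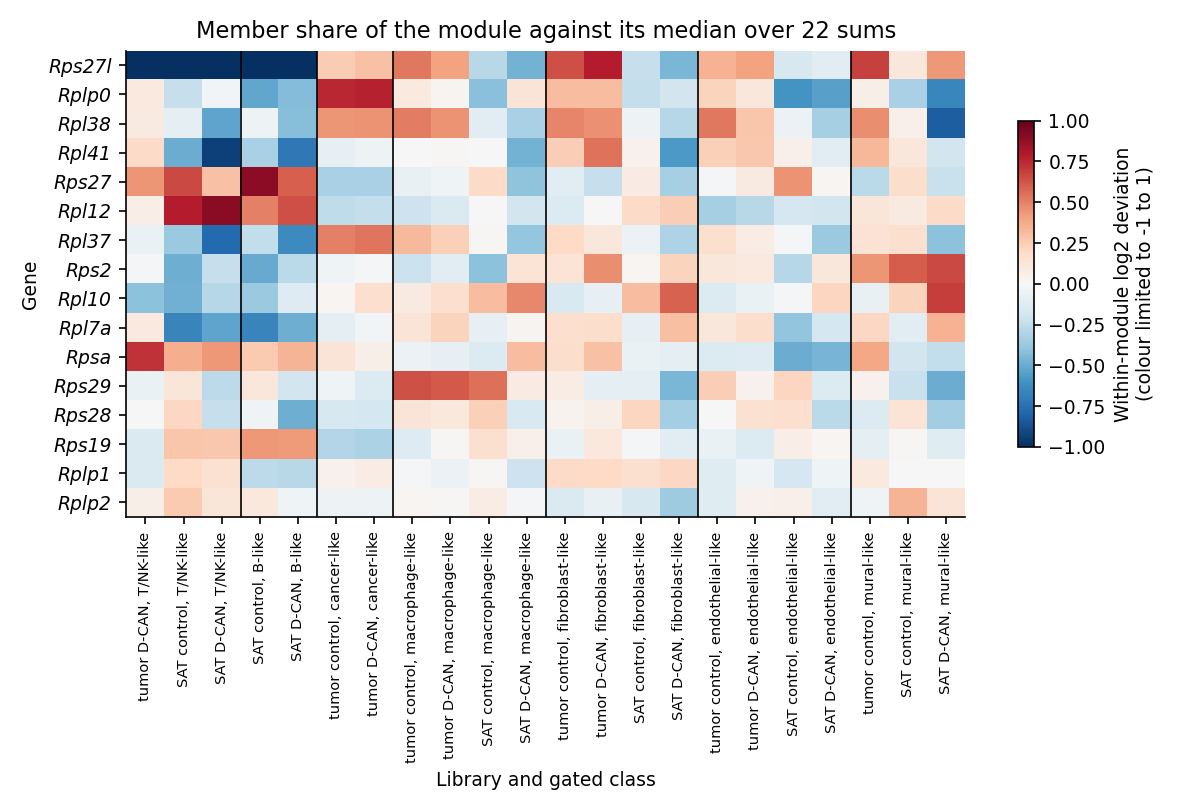
Within-module deviation (log2, color limited to -1 to 1) of Rps27l, 9 of the members with the largest SDs and 6 further named members (rows) in each of the 22 sums (columns, grouped by class). Rps27l is at the lower limit of the scale in the 5 lymphocyte-like sums, and Rplp0 stands highest in the cancer-like sums.

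With counts scaled to the module total, 13 members were lower in T/NK-like than in macrophage-like cells and 8 higher. By the same edgeR test 58.7% of all genes were lower and 2.34% higher. This scaling moves all other genes by the difference in RP share between the classes or tissues. Such shares of all genes, here and below, are therefore no reference for the members. Because members then add up to a fixed total, some stand lower where others stand higher. Rpl3l, Rps27l, Rpl7l1, Rpl10, Rpl31, Rps29, Rpl7a, Rpl37, Rps25, Rps27a, Rpl26, Rps9 and Rpl6 made up the lower group, with Rpl10, a protein of the subunit interface, at -0.74 (adjusted p = 0.000465, edgeR) and Rps29 at -0.47 (adjusted p = 0.0019). Rps16, Rpl17, Rps24, Rps15a, Rpl22l1, Rps27, Rpsa and Rpl12 made up the higher group, led by Rpl12 at 0.71 (adjusted p = 0.000655, edgeR) and Rpsa at 0.53 (adjusted p = 0.00545).

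Cancer-like cells also had a larger share of RP mRNA than macrophage-like cells of the same tumors. Rplp0 had 8340 and 8403 CPM in the cancer-like sums, the highest of any class, against 3156 and 2959 CPM in tumor macrophage-like cells, a log2 difference of 1.47 (SE 0.372, edgeR adjusted p = 0.00262). Rpl5 had 2652 and 2736 CPM against 1318 and 1260 CPM, a log2 difference of 1.33 (adjusted p = 0.00266, edgeR). Of 81 members 65 had an unadjusted p under 0.05 and DESeq2 called 51 higher, counts for which no share of all genes is given. By the adjusted edgeR test 52 were higher and 0 lower, with 22% of all genes higher and 20.1% lower. The median member was 0.88 higher and the median gene 0.19. Scaled to the module total, 1 member was higher and 2 were lower, where 4.36% and 35.5% of all genes were: Rplp0 at 0.57 (edgeR adjusted p = 0.0154), Rps29 at -0.67 (adjusted p = 0.000495) and Rpl7l1 at -0.86. Rps27 was 0.71 higher without passing (adjusted p = 0.0746), and Rps27l passed at 0.70 (adjusted p = 0.0291). Without tumor control, tumor D-CAN or SAT control, 17, 27 and 15 members were higher. This contrast and that of T/NK-like cells share macrophage-like sums. Depth moved with the cancer-like contrast: a tumor control cell had a median of 11585 UMIs when cancer-like and 1545.5 when macrophage-like. Among tumor control cells of 1000 to 2000 UMIs the RP shares were 11.8% in cancer-like (21 cells) and 14.5% in macrophage-like cells (244 cells). As shares of the UMIs that are not mitochondrial these were 17.2% and 15.5%, the other order. At 2000 to 5000 UMIs the shares of all UMIs were 16.7% and 14.2% in tumor control, and 24.0% (26 cells) and 14.6% in tumor D-CAN. At 5000 to 10000 UMIs tumor D-CAN gave 19.1% and 14.3%. The parts of depth and of mitochondrial UMIs were not tested.

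Genes that work beside the ribosome were tested in the same fits. Of 20 translation factors and TOP partners, such as elongation factor Eef1a1, 12 were higher in T/NK-like (median 0.89) and 16 in cancer-like cells (median 0.89) against macrophage-like cells, with 0 lower in both. Of 24 ribosome biogenesis genes, such as the rRNA methylase Fbl, 8 were higher in T/NK-like (median 0.63) and 21 in cancer-like cells (median 1.31). Of 77 genes of the mitochondrial ribosome, 0 were higher and 1 was lower in T/NK-like cells (median -0.04), and 37 were higher and 0 lower in cancer-like cells (median 0.62). The difference between these contrasts was not tested. These counts are set against the shares of all genes given above for the same contrasts. Neutrophil genes moved with both: 2 of 4 were lower in T/NK-like (median -2.91) and 3 of 4 in cancer-like cells (median -4.49). Their summed CPM ran from 0 to 2345 over the T/NK-like sums and from 42.2 to 2298 over the macrophage-like sums, so these overlapped. The part of neutrophil genes in the RP differences was not tested.

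Between B-like and T/NK-like cells no RP gene passed in the joint fit. The edgeR test called 0 of 81 members in either direction, 0 had an unadjusted p under 0.05 and DESeq2 called 0, while 5.12% of all genes were higher and 5.59% lower in B-like cells. The median member differed by -0.02 on the log2 scale. The share itself differed by -5.79 and -6.49 points in the SAT libraries (exact p = 0.5, the smallest 2 libraries allow). In a fit on the sums of these 2 classes alone 67 members passed, and with sums of at least 50 cells 12 passed, so the count rests on which sums enter. The shares of all genes called in these 2 fits are not given here, so the counts do not set members apart from other genes.

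Among the vascular and stromal classes few members passed. Rps26, a small subunit protein near the mRNA exit, had 1165, 979, 929 and 597 CPM in endothelial-like cells and 1520, 1372, 1568 and 997 CPM in fibroblast-like cells (tumor control, tumor D-CAN, SAT control, SAT D-CAN), and was lower in every library. Its log2 difference was -0.78 (edgeR adjusted p = 0.0328). Rpl39l was the other of 2 members lower in endothelial-like cells, and 0 were higher, where 12.3% and 10.3% of all genes were. These are adjusted edgeR calls. Unadjusted, 10 members had a p under 0.05, and DESeq2 called 14, with no share of all genes given for either. The median member stood at -0.33 and the median gene at -0.03. Leaving out tumor control gave 0 lower members, tumor D-CAN 13, and either SAT library 1. In mural-like against fibroblast-like cells 65 of 81 members had an unadjusted p under 0.05 and DESeq2 called 16. No share of all genes is given for these counts. By the adjusted edgeR test 7 members were lower and 0 higher, with 5.11% and 3.01% of all genes. Among these were Rps26 at -1.12 (adjusted p = 0.0213, edgeR), Rps12 at -1.08 (adjusted p = 0.0217), Rps20 at -1.05 (adjusted p = 0.0306), and Rpl28, Rpl36 and Rpl37a. Here the median gene stood at -0.31 and the median member at -0.76, and with library totals in place of TMM factors 0 members passed. Without tumor D-CAN 48 members were lower, and without either SAT library 0, again without a share of all genes.

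The rare paralogs had their own patterns. Rpl39l had 20, 15, 6 and 6 UMIs in fibroblast-like cells of tumor control, tumor D-CAN, SAT control and SAT D-CAN, equal to 33.7, 20.2, 12.2 and 14.4 CPM. In mural-like cells of tumor control, SAT control and SAT D-CAN it had 7, 1 and 1 UMIs, equal to 66.7, 12.9 and 6.61 CPM. The first of these is the highest level of any sum. In all other sums it had 0 to 6 UMIs, and over all cells 80. Endothelial-like cells had 0 in both tumor libraries, and the log2 difference from fibroblast-like cells was -3.87 (edgeR adjusted p = 9.00e-05), a fitted value that rests on the prior count. Its partner Rpl39 was present everywhere, at 1060 to 5698 CPM. Rpl3l had 75 and 51 UMIs in cancer-like cells (7.93 and 6.28 CPM) of 196 over all cells, and macrophage-like cells had 1.66 to 4.18 CPM. Its log2 difference from macrophage-like cells, which had 1 to 3 UMIs a sum, was 1.80 (edgeR adjusted p = 0.0393), a call lost in 7 of 13 recalculations (adjusted p up to 0.314). Rpl22l1 kept a level below Rpl22 in every sum, with 320.5 to 1288 CPM against 859 to 2626 CPM. Rpl39l passed in T/NK-like against macrophage-like cells too (log2 difference 3.35, edgeR adjusted p = 0.0377), on 9 against 1 UMIs, and this call was lost in 8 of 13.

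Between tumor and SAT the same gate was compared across tissues, with the control and D-CAN library of a tissue as its 2 samples, so that treatment enters the spread. Endothelial-like cells showed the clearest difference. Their RP share averaged 4.25 points higher in the tumors, without overlap (exact p = 0.333, the smallest possible). Rplp0 had 3568 and 3487 CPM in the tumors and 1709 and 1486 CPM in SAT, a log2 difference of 1.14 (SE 0.160, edgeR adjusted p = 0.000471). Rpl39 had 2750 and 2789 CPM against 1661 and 1060 CPM (log2 difference 1.02, edgeR adjusted p = 0.00491), and Rpl38, known for its role in translation of Hox mRNAs, 2453 and 2176 against 1383 and 956 CPM (0.99, adjusted p = 0.00471). The groups did not overlap for any of these. In all, 40 of 79 members had an unadjusted p under 0.05 and DESeq2 called 20, for which no share of all genes is given. By the adjusted edgeR test 20 were higher and 0 lower, with 9.34% and 9.21% of 6371 genes. The median member was 0.37 higher and the median gene stood at -0.01. Without tumor control the count was 11 and without SAT control 39, and scaled to the module total 3 members were higher (Rplp0, Rpl39, Rpl38) and Rps23 was lower, against 3.44% and 17% of all genes.

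Markers of other cells moved with this contrast. Summed CPM of the 8 cancer-like markers was 54.5 to 600 in tumor endothelial-like cells, from 2 of the 8 genes with Epcam, Cldn4, Cldn7, Krt18, Krt19 and Cdh1 at 0, and 2.10 to 3.56 in SAT, where cancer-like cells had 1454 to 1513. Red cell genes summed to 4.26 to 1097 CPM in the tumor and 1925 to 2702 CPM in the SAT sums. Their part in the RP difference was not tested. Coding length was only weakly related to this contrast across members, with a Spearman's rho between length and log2 ratio of -0.106 (n = 79). Members under 400 coding bases, Rpl39 and Rpl38 among them, had a median log2 ratio of 0.49 (tumor over SAT), longer ones 0.36. Genes that are no members had medians of 0.34 when short and -0.0007 when longer. The limit of 400 bases was set after values were seen, and the part of length was not tested.

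In fibroblast-like cells Rps27l was higher in the tumors, with 547 and 595 CPM against 325 and 240 CPM (log2 difference 0.88, SE 0.212, edgeR adjusted p = 0.0208). Red cell genes moved with this contrast, at 0 to 5.05 summed CPM in the tumor and 21.6 to 1519 in the SAT fibroblast-like sums, and their part was not tested. Rpl10 had 1330 and 1373 CPM in the tumors and 2001 and 2100 CPM in SAT, a log2 difference of -0.74 (adjusted p = 0.0172, edgeR). Rpl35a at -0.69 (adjusted p = 0.0232), Rps23 at -0.64 (adjusted p = 0.029), Rpl17 and Rps9 made up the 5 lower members, while Rps27l was the 1 higher, against 11.3% and 9.02% of 5618 genes. DESeq2 called 2 lower and 1 higher, and scaled to the module total 2 were higher (Rps27l and Rpl38) and 0 lower, with 12.5% and 8.47% of all genes. Without either tumor library 0 members were lower, without SAT control 8 and without SAT D-CAN 14. In macrophage-like cells 19 of 79 members had an unadjusted p under 0.05 and DESeq2 called 0, for which no share of all genes is given. By the adjusted edgeR test 0 members passed in either direction, where 4.33% of 6209 genes were higher and 4.7% lower. The count rose when either SAT library was left out, where 1 arm of the fit has 1 sum. Rps27l stood 0.66 higher in the tumors (adjusted p = 0.0873, edgeR). Scaled to the module total Rps27l (0.85, adjusted p = 0.0338) and Rpl38 (0.70, adjusted p = 0.0393) were higher and 0 lower, against 7.34% and 3.74% of all genes. Neutrophil genes summed to 42.2 to 162 CPM in tumor and 1644 to 2298 CPM in SAT macrophage-like cells, and their part was not tested. Short genes stood above longer ones here too. Median log2 ratios in fibroblast-like cells were 0.12 and -0.07 for short and longer members, and 0.38 and 0.06 for other genes. In macrophage-like cells they were -0.03 and -0.28, and 0.20 and 0.008. Spearman's rho between length and log2 ratio across members was -0.198 (n = 80) in fibroblast-like and -0.354 (n = 79) in macrophage-like cells. The part of length was not tested.

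D-CAN and control libraries of the tumors held like RP shares. The D-CAN minus control difference was -0.0446 points in cancer-like cells (95% interval -0.0865 to -0.00275, counting error only, as for all differences here), -0.246 in macrophage-like cells (-0.337 to -0.155), 0.934 in endothelial-like cells (0.727 to 1.14) and -0.246 in fibroblast-like cells (-0.373 to -0.119). The sign turned for macrophage-like cells with a gate on marker UMIs (0.665), and for fibroblast-like cells with that gate (0.504) and with 3 markers (0.556). Of the members with at least 20 UMIs, 36 of 80, 46 of 79, 21 of 78 and 49 of 80 were lower in D-CAN in these classes, beside 41.8%, 48.5%, 48.1% and 47.2% of all such genes. At the ends of the order in cancer-like cells, Rpl10 had 2462 CPM in control (95% Poisson interval 2431 to 2494) and 2713 CPM in D-CAN (2677 to 2749), Rpl22l1 826 CPM (807 to 844) and 717 CPM (699 to 736), and Rpl3l 7.93 CPM (6.24 to 9.94) and 6.28 CPM (4.68 to 8.26). In endothelial-like cells Rpl3 stood highest, with 1670 CPM (1525 to 1824) and 2129 CPM (1946 to 2324). The median number of UMIs in a cancer-like cell was 11585 in control and 18682 in D-CAN.

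In SAT the share was lower in D-CAN in 5 of 6 classes. It differed by -3.41 points in mural-like (-3.69 to -3.13), -2.55 in fibroblast-like (-2.70 to -2.39), -2.39 in endothelial-like (-2.49 to -2.30), -1.69 in B-like (-1.79 to -1.59) and -0.990 in T/NK-like cells (-1.07 to -0.905). Macrophage-like cells differed by 0.783 points (0.563 to 1.003), which turned to -0.214 with 3 markers. Lower members numbered 74 of 77, 71 of 79, 76 of 79, 45 of 79, 40 of 79 and 31 of 78 in these 6 classes in the order given, beside 44.1%, 52.9%, 49.6%, 55.8%, 49.8% and 44.9% of all genes. Depth moved with these values: the median number of UMIs per cell was 1532 in control and 4384 in D-CAN in mural-like, 890 and 5586 in fibroblast-like, 1129 and 4299 in endothelial-like, 1950 and 2601 in B-like, 2768 and 3505 in T/NK-like and 1464 and 4618.5 in macrophage-like cells. Its part was not tested.

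The lower values were unequal among members. Of 72 members with at least 100 UMIs over both libraries in all 6 SAT classes, 24 were lower in every class and 0 higher in every class, beside 18% and 7.3% of the 178 genes, members included, that met this minimum. Since 24 of the 32 genes behind the 18% are members, that share is no outside reference. In the tumors 5 of 77 were lower and 11 higher in all 4 classes, beside 7.25% and 16.1% of 607 genes. Rps28, a short protein of the small subunit, had 3895 CPM in SAT control and 2790 CPM in SAT D-CAN in T/NK-like cells, 2792 and 1923 CPM in B-like, 1881 and 1496 CPM in macrophage-like, 1439 and 886 CPM in endothelial-like, 1895 and 1107 CPM in fibroblast-like and 1254 and 661 CPM in mural-like cells. It was lower in D-CAN in each, with a median log2 ratio of -0.62. Next came Rps27 (-0.58), Rpl39 (-0.53), Rps29 (-0.50), Rpl37a (-0.49), Rpl41 (-0.47), Rpl37 (-0.46) and Rpl38 (-0.46). At the other end stood Rps2 (0.15), Rpl10 (0.11) and Rpl9 (0.10). Within a class the widest gap was that of Rpl38 in mural-like cells, with 1332 CPM (95% Poisson interval 1087 to 1615) in control and 535 CPM (425 to 665) in D-CAN. Rplp0 and Rps2 led the other way in macrophage-like cells, Rplp0 with 2414 CPM (2221 to 2618) and 3685 CPM (3445 to 3936). Rpl3, a large subunit protein with a coding sequence of 1209 bases, was higher in D-CAN in 4 classes, as in T/NK-like cells with 3529 and 3960 CPM, and lower in endothelial-like (1585 and 1376 CPM) and mural-like cells (1655 and 1407 CPM). Rpl4, the longest member, had a median of -0.04 and was lower in 3 classes.

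The members at the low end have short coding sequences: 138 bases in Rpl41, 153 in Rpl39, 168 in Rps29, 207 in Rps28, 210 in Rpl38, 252 in Rps27, 276 in Rpl37a and 291 in Rpl37, where the members run from 138 to 1257 bases with a median of 462 (longest annotated coding sequence, GENCODE vM21). Across members, Spearman's rho between coding length and the D-CAN to control log2 ratio was 0.746 in macrophage-like (n = 78 members), 0.789 in T/NK-like (n = 79), 0.667 in B-like (n = 79), 0.620 in endothelial-like (n = 79), 0.628 in fibroblast-like (n = 79) and 0.474 in mural-like cells (n = 77) of SAT. In the tumors it was 0.0283 in cancer-like (n = 80), 0.118 in macrophage-like, 0.248 in endothelial-like and 0.273 in fibroblast-like cells. The points of a class share the same pair of libraries and all classes of a tissue share them too, so these values are 1 description of 2 library pairs.

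Split at 400 bases, a limit set after the values were seen, the 26 short members measured had a median log2 ratio of -0.22 and the longer ones of 0.06 in SAT T/NK-like cells. The medians were -0.26 and 0.02 in B-like, -0.15 and 0.22 in macrophage-like, -0.42 and -0.19 in endothelial-like, -0.43 and -0.13 in fibroblast-like and -0.63 and -0.36 in mural-like cells. Short members were the lower in each class. Among genes that are no members, the short ones had medians of -0.02 in T/NK-like, -0.15 in B-like, 0.02 in macrophage-like, -0.04 in endothelial-like, -0.11 in fibroblast-like and -0.01 in mural-like cells, and the longer ones 0.00, -0.05, 0.01, 0.01, -0.02 and 0.17, so that the short ones were lower in 5 of 6 classes there too. The SAT D-CAN table was written by Cell Ranger 3.0.2 according to its header and the other 3 by 3.1.0, and library, treatment, depth and software version cannot be told apart in this pair.

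**Figure D5:**
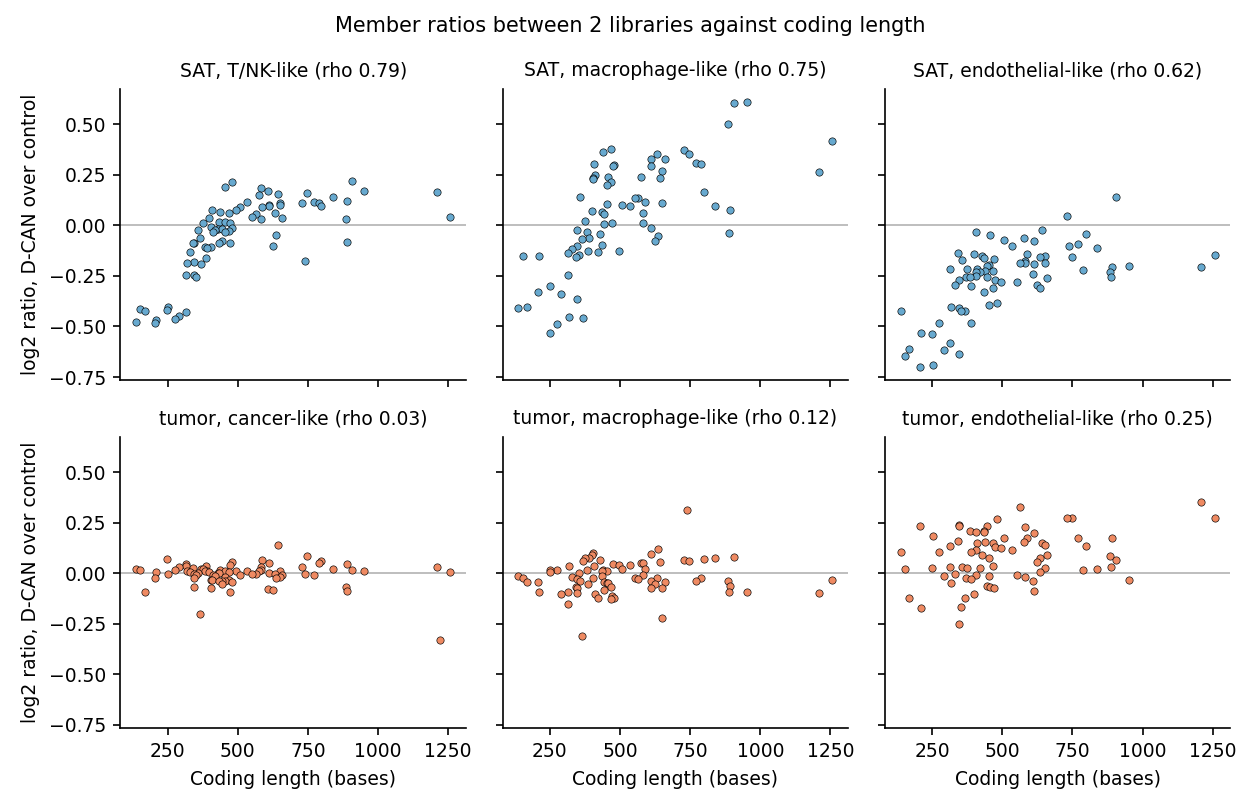
D-CAN to control log2 ratio of each member with at least 100 UMIs over both libraries (points) against its longest annotated coding length in bases, for 3 classes of SAT (top) and 3 of the tumors (bottom). Short members lie lowest in the SAT panels (Spearman's rho 0.620 to 0.789), and the tumor panels slope less (0.0283 to 0.248).

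RP share also moved with the state of the cells inside a library. As a share of the UMIs that are not mitochondrial, RP genes took 23.7% in tumor control cells with under 5% mitochondrial UMIs, 31.2% in those with 5 to 10%, 29.3% in those with 10 to 20%, 18.3% in those with 20 to 50% and 16.5% in those above. In SAT control the first 4 ranges gave 28.3%, 32.9%, 19.7% and 11.8%. These ranges mix the classes. The values that follow are shares of all UMIs, mitochondrial ones included. SAT T/NK-like cells of under 1000 UMIs had 19.3% in control (99 cells) and 7.21% in D-CAN (80 cells), while cells of 2000 to 5000 UMIs had 40.5% and 39.5%. The order was the other in SAT control endothelial-like cells, 16.6% (208 cells) and 13.8%, and fibroblast-like cells, 20.3% (146 cells) and 16.3%. SAT control fibroblast-like cells of 5000 to 10000 UMIs had 20.4% (20 cells). In SAT D-CAN, endothelial-like cells had 7.51% at 1000 to 2000 UMIs (22 cells), 10.1% at 2000 to 5000 and 12.7% at 5000 to 10000. Fibroblast-like cells there had 8.88% at 2000 to 5000 UMIs (20 cells) and 18.3% at 5000 to 10000. Cells with 2 or more of 8 cycling markers, such as Mki67, had a lower RP share than the rest in SAT T/NK-like cells, 29.6% against 38.5% in control and 26.9% against 38.2% in D-CAN. Cancer-like cells differed the same way, 25.8% against 28.1% and 26.7% against 27.9%. Tumor macrophage-like cells went the other way, 17.7% against 16.3% and 17.5% against 15.9%. Cells are not replicates, so these are values of 2 libraries each without a test.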

How the data were processed

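Per the labels, the authors made UMI counts per gene and cell with Cell Ranger 3.1.0 (STAR 2.6, mm10, Ensembl 93 genes) and deposited them unnormalized for called cells in 4 libraries. The headers name Cell Ranger 3.0.2 for 1 of them. The members, marker lists and comparisons were chosen with earlier results of these data known. Named genes followed a rule: the 5 highest members, stalk genes and Rpsa, paralog pairs, Rpl5, Rpl11, Rps19 and Rps6, the 10 largest within-module SDs, the 3 highest and 3 lowest calls of each comparison, and the 2 highest and 2 lowest D-CAN ratios per class among members with at least 100 UMIs.

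Cells with under 200 genes were left out. Counts of gated cells were summed by library and class (at least 20 cells) and genes with at least 50 UMIs over the sums tested in edgeR 4.0.16 (R 4.3.3): glmQLFit with class and library terms, TMM, Benjamini-Hochberg, or tissue alone for 2 against 2 sums. Tissue tests of T/NK-like and mural-like cells were skipped, since a sum had under 20 cells. Nothing states that libraries came from separate animals of a group, so p-values of the tissue fits measure the spread between these libraries. Those of the class contrasts measure how class differences vary between these libraries, pooled over all sums in the fit. Shares have exact binomial 95% intervals for counting error. D-CAN to control log2 ratios added 0.5 UMI. In simulated counts for T/NK-like against macrophage-like cells over 12585 genes, 93 of 100 genes changed by 2 (log2) and 20 of 100 changed by 1 were called, with 1 false call. For tumor against SAT macrophage-like cells over 6351 genes these were 45 of 72 and 5 of 77, with 0 false calls. Apart from the changed genes, the simulated sums had no difference between classes or libraries and no common RP shift. False calls under such a shift were therefore not measured. Alternatives were other gates, cell filters, normalizations, count filters, DESeq2 1.42.0, fits on fewer sums and each library left out. Python 3.11.15, numpy 2.4.6, scipy 1.17.1 and matplotlib 3.10.9 were used. Positions are from GENCODE vM21. Some genes that the naming rule takes are not reported here by name.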

Additional observations from a re-analysis of the deposited data

Results flagged for a closer look

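The RP share moved in opposite directions with D-CAN in the 2 tissues for macrophage-like and endothelial-like cells. In macrophage-like cells the D-CAN minus control difference was -0.246 percentage points in the tumor and 0.783 points in SAT. In endothelial-like cells it was 0.934 points in the tumor and -2.39 points in SAT. The sign for macrophage-like cells turned with the gate, to 0.665 points in the tumor with a gate on marker UMIs and to -0.214 points in SAT with 3 markers. With 1 library for each condition the difference between tissues was not tested.

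Symbols outside the rule carried reads of near-identical copies. Rps27rt equalled 0.0362% of the UMIs of the 82 members, and 9 symbols containing -ps together equalled 0.0883%, from 10896 UMIs.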

How the results depend on the processing

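Precision is limited by 4 libraries, by sums as small as 23 cells, and by RP counts that rest on how each sum is scaled. Library totals in place of TMM factors moved the median of all genes from -0.07 to -0.35 in T/NK-like against macrophage-like cells and from -0.31 to 0.05 in mural-like against fibroblast-like cells. No paired analysis was possible because each group has 1 library, so replicate numbers pair nothing, while contrasts of classes held library as a term of the fit. In tissue fits without 1 library an arm has 1 sum, which is assumed to vary like the other arm. The causes of the changes below were not tested, except that scaling to the module total removes a shift common to all members.

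The shares per class stayed within their spread over libraries in 62 of 71 recalculations. The cancer-like share became 27.0% with 3 markers in the gate, 27.9% with a gate on marker UMIs, 28.41% with cells of at most 20% mitochondrial UMIs, 30.4% without mitochondrial UMIs and 28.37% with 4 further symbols added. The macrophage-like share became 15.1% with 3 markers and 15.9% with the UMI gate. The B-like share became 33.6% without mitochondrial UMIs and 32.7% with these 4 symbols added. With single libraries left out, shares ranged over 27.5 to 27.6% in cancer-like, 16.9 to 17.8% in macrophage-like, 31.7 to 37.5% in T/NK-like, 30.5 to 32.2% in B-like, 14.5 to 16.5% in endothelial-like, 16.4 to 17.3% in fibroblast-like and 11.2 to 15.1% in mural-like cells. Of 77 recalculated D-CAN differences 48 stayed within the counting interval and 4 changed sign: tumor fibroblast-like cells to 0.556 points with 3 markers and 0.504 with the UMI gate, SAT macrophage-like cells to -0.214 with 3 markers, and tumor macrophage-like cells to 0.665 with the UMI gate.

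Of 118 recalculated counts of members called, 67 stayed within 1.5 times. Shares of all genes called are mostly not given for these recalculations, so the counts alone do not set members apart from other genes. T/NK-like against macrophage-like cells, 74 higher, turned to 8 higher and 13 lower with the module total, became 48 in a fit on these classes alone, and ranged from 9 to 78 with a library left out. Cancer-like against macrophage-like cells, 52, gave 1 with the module total and 15 to 53 with a library left out. B-like against T/NK-like cells, 0, gave 1 with 3 markers, 1 with cells of 500 genes or more, 12 with sums of 50 cells or more, 67 in a fit on these classes alone and 0 to 1 with a library left out. Endothelial-like against fibroblast-like cells, 2, gave 10 with 3 markers, 8 with the UMI gate, 23 with 500 genes, 44 with 50 cells, 14 with DESeq2, 6 in a fit on these classes alone and 0 to 13 with a library left out. Mural-like against fibroblast-like cells, 7, gave 42 with 3 markers, 63 with the UMI gate, 66 with 500 genes, 16 with DESeq2, 27 with no count filter, 0 with library totals, with the module total and in a fit on these classes alone, and 0 to 48 with a library left out.

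Between tissues, macrophage-like cells, 0, gave 1 with 500 genes and 0 to 31 with a library left out. Endothelial-like cells, 20 higher, gave 3 with the module total and 11 to 39 with a library left out. Fibroblast-like cells, 5 lower, gave 20 with 3 markers, 20 with the UMI gate, 2 with DESeq2, 1 with library totals, 0 with the module total, 1 with no count filter, 3 with treatment as a covariate and 0 to 14 with a library left out. The up to 3 highest and 3 lowest calls of each comparison stayed past the threshold in 227 of 277 recalculations and changed sign in 0. This does not hold for all called members. With the module total 40 of the 75 called in T/NK-like against macrophage-like cells changed sign, and 15 of the 52 in cancer-like against macrophage-like cells. Rps27l, Rpl12 and Rpl22l1 in T/NK-like against macrophage-like cells, Rplp0 in cancer-like against macrophage-like cells and Rplp0, Rpl38 and Rpl39 in endothelial-like cells of the tumors passed in all 15 recalculations of each, while Rpl39l in T/NK-like cells was lost in 8 of 13 and Rpl3l in cancer-like cells in 7 of 13. With other gates and cell filters, chosen after the data were seen, rho between coding length and ratio had lowest values over the SAT classes of 0.424 to 0.470 and highest of 0.789 to 0.790.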
